A study of Rattus norvegicus with 5 samples.

Results

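The fibrillar collagens Col1a1, Col1a2 and Col3a1 were followed in the left ventricular wall of rats with and without myocardial infarction. They are 3 of the 20646 genes in the expression table and were taken by their Ensembl identifiers, ENSRNOG00000003897 for Col1a1, ENSRNOG00000011292 for Col1a2 and ENSRNOG00000003357 for Col3a1. The animals were male SD rats aged 7 to 8 weeks. The Normal group had no infarct. In the MI, SNAP, DTMS and S-DTMS groups the left anterior descending artery was ligated. MI rats then received no intervention, and SNAP rats an injection of the nitric oxide donor SNAP into the infarcted area. DTMS rats received the conductive hydrogel suture alone, and S-DTMS rats the suture with SNAP delivered through its channel. The methods also describe saline given through the reservoir to a sutured group named shank, which appears to be DTMS. Suture alone therefore means without SNAP. The same methods passage names SNAP beside shank as sutured, whereas a figure legend of the study describes the SNAP group as treated with SNAP only. SNAP is taken here as a group without the suture. The sample labels give 1 month as the time of sampling, while the study's methods state a week after therapy. Each group is represented by 1 library. The study describes several biologically independent replicates for this sequencing, whereas the table holds a single column per group, so that a value may stand for 1 rat, for a pool or for 1 of several replicates. Differences between groups could therefore not be set against a spread between animals, and p-values are not given. Intervals given below cover counting error only and not the variation between rats.

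Type I and type III collagen are the main fibre-forming proteins of the cardiac interstitium and of the scar that replaces dead muscle. Both are made chiefly by fibroblasts and myofibroblasts. The type I molecule is a triple helix of chains encoded by Col1a1 and Col1a2, in which the Col1a1 product is the more abundant chain, whereas type III consists of Col3a1 chains alone. Type I forms thick and stiff fibres and type III finer and more compliant ones, so that the balance of both is often used to describe a scar.

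The level of a gene is given as FPKM, the fragments of a gene relative to its length and to all fragments of the library, as the authors deposited it. The low values of the table were whole multiples of the worth of 1 fragment, from which library totals of 16731024 to 17379225 fragments were worked out. Depth was thus nearly equal between libraries. The fragments of the members came out whole to within 3.83e-05, with gene lengths of 5825 bases for Col1a1, 4475 for Col1a2 and 4765 for Col3a1. The 10 genes of highest mean FPKM held 18.9% of the summed FPKM in S-DTMS and 24.1% in Normal, but 30.6% to 33.2% in MI, SNAP and DTMS. Such genes weigh on the scale of all others, and each change was therefore also computed on median-of-ratios values, for which a library is divided by the ratio of its typical gene to that gene's geometric mean over the libraries. The labelled tissue was not checked against marker genes, since the identifiers of other genes could not be paired with names.

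The upstream sequence of Col1a2 is shown as a description only, and a link to the changes in level was not tested. Of the 3 genes, the RefSeq promoter table (build GRCr8) held Col1a2 only. Its 100 bases at chr4:33518307-33518406, plus strand, run from 250 to 151 bases before the annotated start of the gene, and capitals mark a CCAAT element, read here as its reverse complement, and a TATAAA element.
Col1a2 upstream: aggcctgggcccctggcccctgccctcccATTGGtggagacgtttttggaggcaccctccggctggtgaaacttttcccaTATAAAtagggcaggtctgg
Searched on both strands, CCAAT occurred in 37.5% and TATAAA in 14.2% of all 33469 promoters of 300 bases, and both occurred in 5.66%. The elements do not overlap here, and they begin 221 (CCAAT) and 170 (TATAAA) bases before the annotated start. A match of letters describes the sequence and does not show that a factor binds.

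Col1a1, which encodes the predominant chain of type I collagen, had an FPKM of 364 in Normal, 1089 in MI, 236 in SNAP, 141 in DTMS and 212 in S-DTMS. The infarcted heart without intervention stood far above all others, and each treated heart was below the uninjured one. These values rest on 36320, 106461, 23902, 13696 and 21052 fragments in the same order, and none of the 10 intervals for the ratio of a pair of libraries held 1. Among the genes of its library, Col1a1 ranked at place 54 from the top in MI, 230 in Normal, 299 in SNAP, 349 in S-DTMS and 486 in DTMS. The highest and the lowest library differed 7.75-fold.

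Col3a1, the only chain of type III collagen, was the most abundant of the 3 transcripts per length in every library. Its FPKM was 918 in Normal, 1681 in MI, 531 in SNAP, 491 in DTMS and 579 in S-DTMS. The order was that of Col1a1 except that S-DTMS stood above SNAP, and the span was smaller, 3.42-fold from DTMS to MI. The gene ranked at place 34 in MI and 71 in Normal, and between 133 and 160 in the treated libraries. The 3 treated hearts lay close to each other, with ratios of 1.08 (95% interval 1.07 to 1.10) for SNAP over DTMS and 1.09 (1.08 to 1.10) for S-DTMS over SNAP.

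Col1a2, which encodes the second chain of type I collagen, had an FPKM of only 4.18 in Normal, 10.4 in MI, 3.70 in SNAP, 1.91 in DTMS and 3.27 in S-DTMS. The order of the libraries was that of Col1a1, with a 5.46-fold span from DTMS to MI. However, the row held between 143 and 784 fragments per library and was exceeded by 27.0% of all genes in MI and by 52.8% in DTMS. With so few fragments, some neighbours in the order could not be separated. The ratio of SNAP to Normal was 0.887 (95% interval 0.753 to 1.04), and that of S-DTMS to SNAP was 0.882 (0.741 to 1.05). The other 8 of the 10 intervals left out 1.

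**Figure D1:**
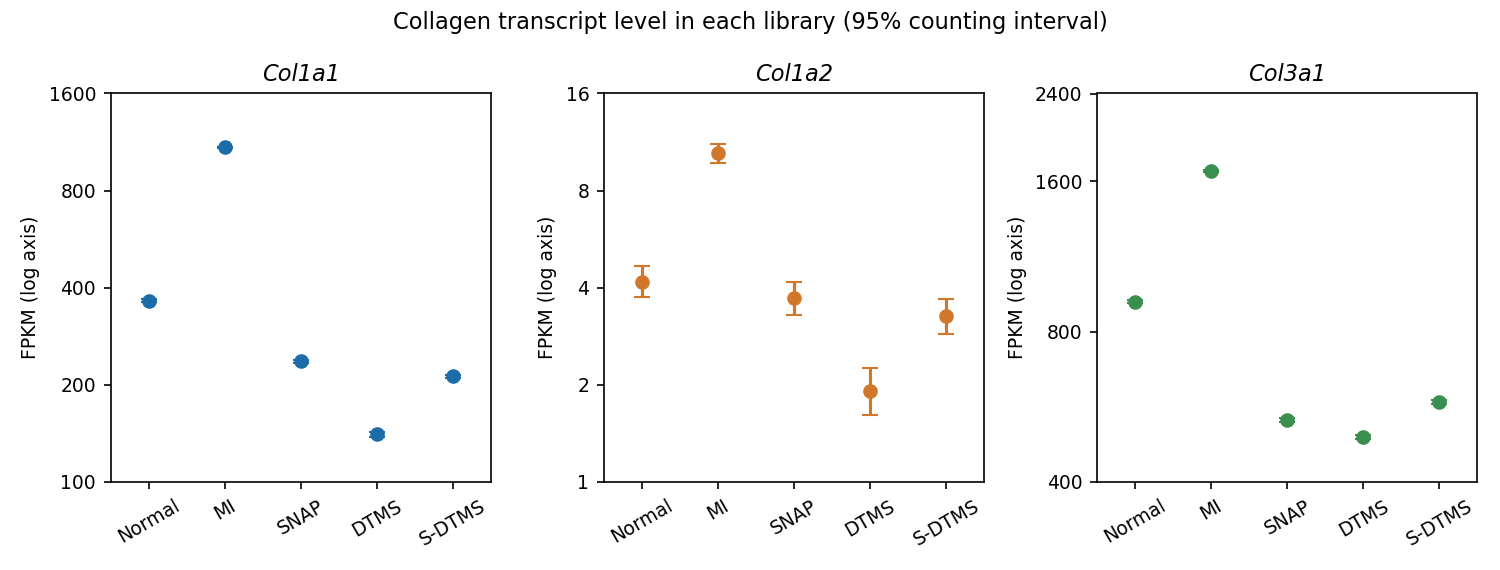
FPKM (log axis, with a different range in each panel) of Col1a1, Col1a2 and Col3a1 in the 5 libraries, with bars for the 95% counting interval, which do not cover the variation between rats. MI is the highest and DTMS the lowest point in each panel, at 1089 and 141 for Col1a1, 10.4 and 1.91 for Col1a2, and 1681 and 491 for Col3a1.

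Together the 3 genes took 0.652% of all fragments in Normal, 1.44% in MI, 0.392% in SNAP, 0.317% in DTMS and 0.401% in S-DTMS. In this bulk tissue, fewer collagen-producing cells and less collagen RNA per cell cannot be told apart.

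The comparison of MI with Normal asks how the infarct changed the scar collagens. On the scale of log2(FPKM + 1), which understates the change of low genes such as Col1a2, Col1a1 was higher in MI by 1.58, Col1a2 by 1.14 and Col3a1 by 0.87. Without the pseudocount, MI was 2.99 times Normal for Col1a1 (95% interval 2.95 to 3.03), 2.50 times for Col1a2 (2.19 to 2.85) and 1.83 times for Col3a1 (1.81 to 1.85). A log2 change of at least 1 in the higher direction was reached by 2 of the 3 members, Col1a1 and Col1a2, and by 2.22% of the 13769 genes whose FPKM was at least 1 in some library. The median change of the members was 1.14 and that of all genes was -0.12. Only 0.603% of genes had a larger rise than Col1a1, against 1.63% for Col1a2 and 2.75% for Col3a1. On median-of-ratios values, Col3a1 also reached the limit, at 1.01.

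The 3 treatments were each compared with MI, the untreated infarct. These comparisons share the MI library, in which the collagens were highest, so that its own chance value enters all of them.

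With SNAP alone, all 3 collagens were lower than in MI. The log2 difference was -2.20 for Col1a1, -1.66 for Col3a1 and -1.28 for Col1a2. All 3 passed a difference of -1, as did 4.01% of all genes. The median of the members was -1.66 and that of all genes -0.14. In linear terms, MI was 4.61 times SNAP for Col1a1 (95% interval 4.55 to 4.68), 3.16 times for Col3a1 (3.13 to 3.20) and 2.82 times for Col1a2 (2.46 to 3.24). Just 0.167% of genes were lowered more than Col1a1.

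With the suture alone, the collagens were at their lowest. Against MI, the log2 difference was -2.94 for Col1a1, -1.97 for Col1a2 and -1.77 for Col3a1. All 3 were past the limit, against 3.19% of all genes in this direction. The median of the members was -1.97 and that of all genes -0.06. Of 13769 genes, 8 were lowered more than Col1a1, 43 more than Col1a2 and 74 more than Col3a1. MI was 7.75 times DTMS for Col1a1 (95% interval 7.61 to 7.89), 5.46 times for Col1a2 (4.57 to 6.58) and 3.42 times for Col3a1 (3.38 to 3.46).

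With the SNAP-loaded suture, the log2 difference from MI was -2.35 for Col1a1, -1.54 for Col3a1 and -1.42 for Col1a2. All 3 passed the limit, but so did 5.73% of all genes in this direction, as the S-DTMS library differed from MI at 14.5% of all genes. The median of the members was -1.54, while that of all genes was 0.15. MI was 5.13 times S-DTMS for Col1a1 (95% interval 5.06 to 5.21), 3.20 times for Col1a2 (2.77 to 3.70) and 2.90 times for Col3a1 (2.87 to 2.93). A stronger fall than that of Col1a1 was listed for 0.487% of genes.

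The comparison of S-DTMS with DTMS asks how the suture with SNAP differed from the suture alone. The collagens were not lower in the S-DTMS library on the deposited scale. The log2 difference was 0.59 for Col1a1, 0.55 for Col1a2 and 0.24 for Col3a1, so that none of the 3 reached the limit of 1, which 14.1% of all genes did in either direction. S-DTMS was 1.51 times DTMS for Col1a1 (95% interval 1.48 to 1.54), 1.71 times for Col1a2 (1.39 to 2.12) and 1.18 times for Col3a1 (1.16 to 1.19). The median of all genes was itself 0.25, close to the change of Col3a1. On median-of-ratios values the differences were 0.31, 0.35 and -0.05, the last with its sign turned.

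Against the uninjured heart, the collagens of the S-DTMS library were lower, with log2 differences of -0.78 for Col1a1, -0.66 for Col3a1 and -0.28 for Col1a2. None of the 3 was past the limit, against 10.5% of all genes in either direction. A lower change than that of Col1a1 was found for 9.35% of genes, than that of Col3a1 for 11.6% and than that of Col1a2 for 26.8%. The change of Col1a2 therefore lay among those of many other genes. The S-DTMS level was 0.582 of Normal for Col1a1 (95% interval 0.573 to 0.592), 0.630 for Col3a1 (0.623 to 0.638) and 0.782 for Col1a2 (0.660 to 0.926).

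**Figure D2:**
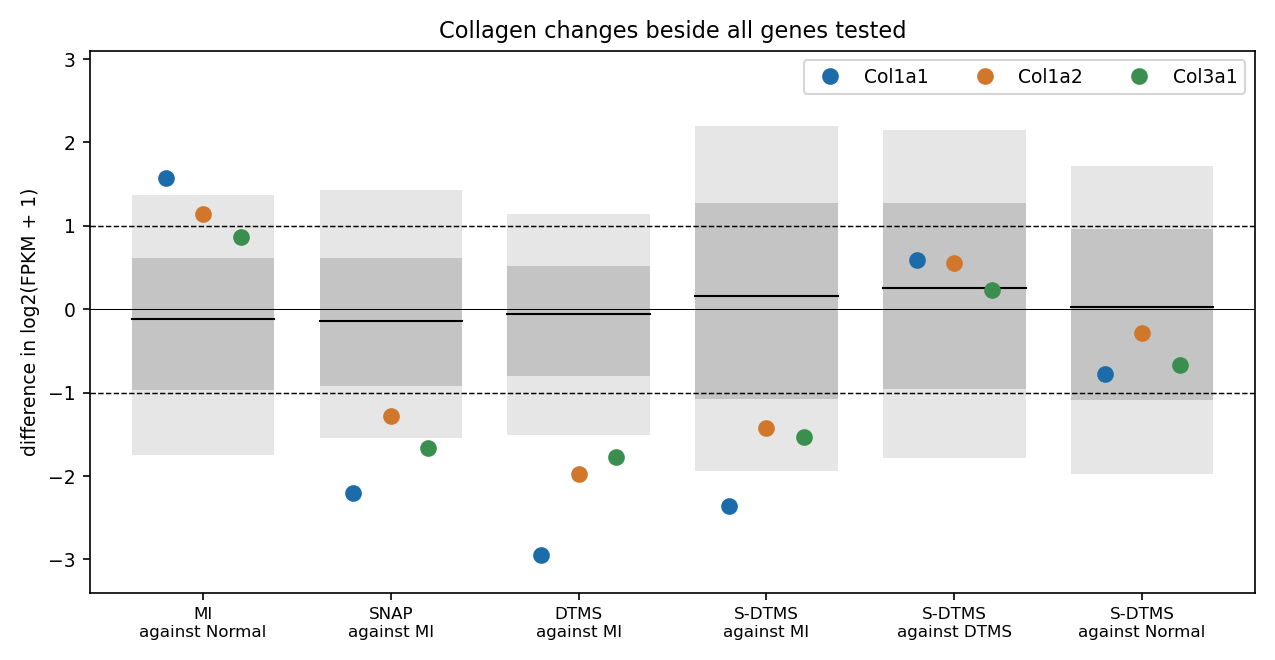
Differences in log2(FPKM + 1) of the 3 collagens (points) in 6 comparisons, each of 1 library with 1 library, with pale bars from percentile 1 to 99 of the 13769 genes tested, darker bars from percentile 5 to 95, a line at the median and dashed lines at the limit of 1. The collagens lie above the darker bar in MI against Normal (0.87 to 1.58), below it in the treated hearts against MI (-2.94 to -1.28), and inside it in the last 2 comparisons.

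The scale on which libraries were compared moved these values, but no member's change against MI or from Normal to MI turned its sign on any of the 5 scales tried. In SNAP against MI, Col1a1 ranged from -2.20 to -2.01 and Col1a2 from -1.47 to -1.13. In DTMS against MI, Col1a1 ranged from -2.95 to -2.84 and Col1a2 from -2.39 to -1.90. In S-DTMS against MI, Col1a1 ranged from -2.58 to -2.22 and Col3a1 from -1.76 to -1.40. The order of the lower libraries was less firm. With the median of ratios, Normal and SNAP changed places for Col1a2, and S-DTMS became the lowest library for Col3a1.

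**Figure D3:**
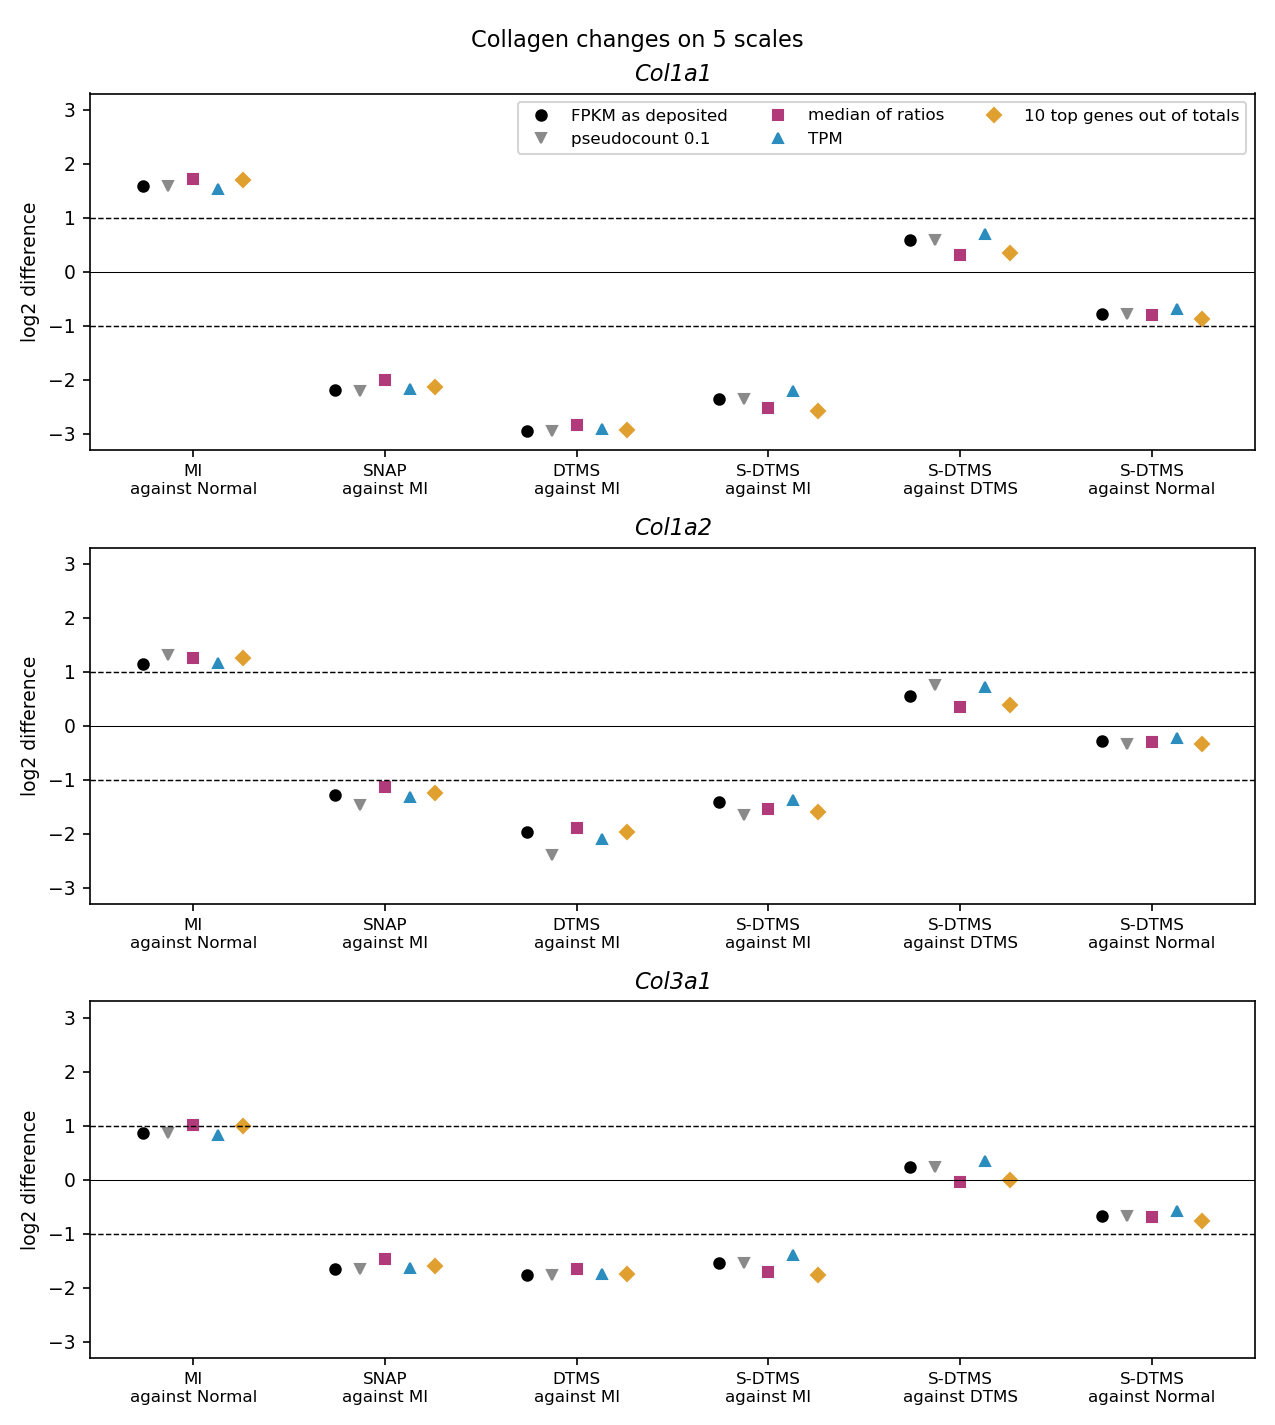
Log2 differences of Col1a1, Col1a2 and Col3a1 in the 6 comparisons on 5 scales, with dashed lines at the limit of 1. The points of a comparison stay on the same side of 0 except for Col3a1 in S-DTMS against DTMS, which ranges from -0.05 to 0.34.

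The ratio of type I to type III does not depend on the scaling of libraries, since both values come from the same library. As the mean FPKM of Col1a1 and Col1a2 over that of Col3a1, it was 0.201 in Normal, 0.327 in MI, 0.226 in SNAP, 0.145 in DTMS and 0.186 in S-DTMS. The untreated infarct thus had the highest ratio, 1.63 times that of Normal, and DTMS the lowest, 0.443 of that in MI. SNAP stood at 0.690 and S-DTMS at 0.569 of MI. As Col1a2 was so low, this ratio followed Col1a1 across the libraries, but averaging with Col1a2 placed it far below Col1a1 over Col3a1. Col1a1 over Col3a1 was 0.397 (95% interval 0.392 to 0.402) in Normal, 0.648 (0.643 to 0.653) in MI, 0.444 (0.437 to 0.451) in SNAP, 0.286 (0.281 to 0.292) in DTMS and 0.366 (0.360 to 0.372) in S-DTMS. None of these intervals overlap. The SNAP heart lay above Normal in this ratio, although both of its transcripts were below Normal in level.

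Col1a2 over Col3a1 gave another order. It was 0.00455 in Normal, 0.00621 in MI, 0.00697 in SNAP, 0.00389 in DTMS and 0.00564 in S-DTMS. The SNAP library had the highest value, although its interval (0.00618 to 0.00783) overlapped that of MI (0.00578 to 0.00666). MI again stood above Normal and DTMS again had the lowest value. The DTMS interval of 0.00328 to 0.00458 overlapped that of Normal, 0.00406 to 0.00508.

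The ratio between the chains of type I collagen also differed between some of the libraries. Col1a1 exceeded Col1a2 per length 87.2-fold in Normal (95% interval 78.1 to 97.6), 104-fold in MI (97.2 to 112), 63.8-fold in SNAP (56.8 to 71.9), 73.6-fold in DTMS (62.4 to 87.4) and 65.0-fold in S-DTMS (57.3 to 73.9). The interval of MI lay above those of the 3 treated libraries but overlapped that of Normal. The interval of Normal in turn overlapped that of DTMS. A gap of this size is far from the makeup of the protein, in which both chains occur in the same molecule. How reads of this gene were assigned was not tested, so its level is best compared between libraries, not with the other genes. The pairing of the 3 identifiers with their symbols could not be checked in the table or the reference.

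**Figure D4:**
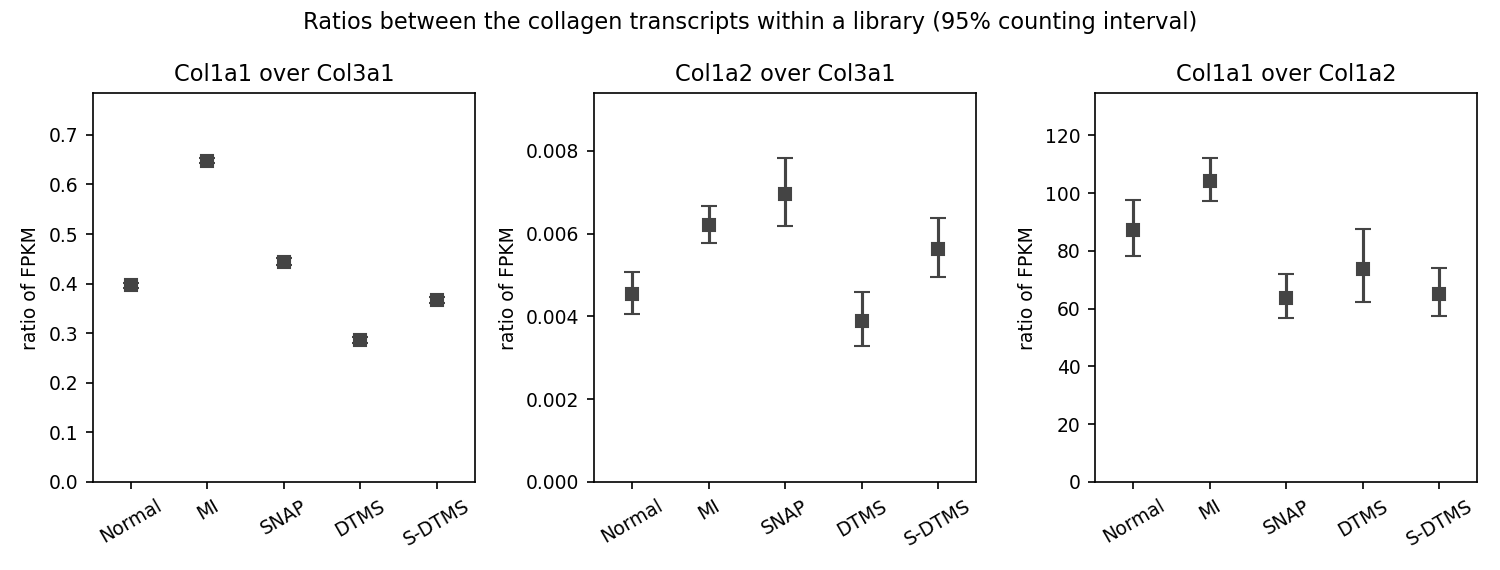
Ratios of FPKM within each of the 5 libraries (axes from 0), with 95% counting intervals. Col1a1 over Col3a1 runs from 0.286 in DTMS to 0.648 in MI, Col1a2 over Col3a1 is highest in SNAP at 0.00697, and Col1a1 over Col1a2 is highest in MI at 104.

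The likeness of the 3 profiles was measured as the root mean square difference of log2(FPKM + 1) over the 5 libraries, each profile centred on its own mean. Col1a1 and Col1a2 differed by 0.38, and 9 of the 13768 other genes were nearer to Col1a1 than Col1a2 was. Col1a1 and Col3a1 also differed by 0.38, with 11 genes nearer to Col1a1. Col1a2 and Col3a1 differed by 0.23, with 15 genes nearer to Col1a2. The pseudocount narrows the profile of Col1a2, whose FPKM was low, so which pair is most alike may depend on it. Likeness without the pseudocount was not computed. Seen from the other gene of each pair, the counts were higher. To Col1a2, 172 genes were nearer than Col1a1 was. To Col3a1, 279 genes were nearer than Col1a1 and 37 nearer than Col1a2. By comparison, the median gene lay at 1.03 from Col1a1, 0.69 from Col1a2 and 0.69 from Col3a1. Col1a1 stood apart by its wider span over the libraries, 2.94 on the log2 scale against 1.97 for Col1a2 and 1.77 for Col3a1. A wider span was found for 1.24%, 5.15% and 7.22% of genes, respectively. The span and share of Col1a2 are affected by the pseudocount. Without it, the log2 ratio of DTMS to MI was -2.95 for Col1a1, -2.45 for Col1a2 and -1.77 for Col3a1.

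MI as the highest library with Normal next, the order all 3 collagens had, was found in 902 of 13769 genes, or 6.55%. MI highest together with DTMS lowest, which they also shared, was found in 419 genes, or 3.04%. On median-of-ratios values, each of these patterns was left in 2 of the 3 collagens. The first was lost by Col1a2 and found in 5.55% of genes. The second was lost by Col3a1 and found in 3.06%.

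Among the 7154 other genes whose FPKM was at least 10 in some library, the 10 nearest to the mean profile of the collagens lay at 0.19 to 0.28, while the median gene lay at 0.81. All 10 were highest in MI with Normal next, and 5 of them were lowest in DTMS. As they were chosen for nearness to the collagen profile over these libraries, a shared order follows largely from the choice. The nearest was ENSRNOG00000025001, with an FPKM of 50.1 in Normal, 130.4 in MI, 45.7 in SNAP, 32.0 in DTMS and 32.4 in S-DTMS. The next was ENSRNOG00000017477, with 10.3, 22.5, 7.63, 6.45 and 8.38 in the same order. The levels of the 10 genes in MI ranged from 10.3 to 2085. The table gives no names for these identifiers.

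**Figure D5:**
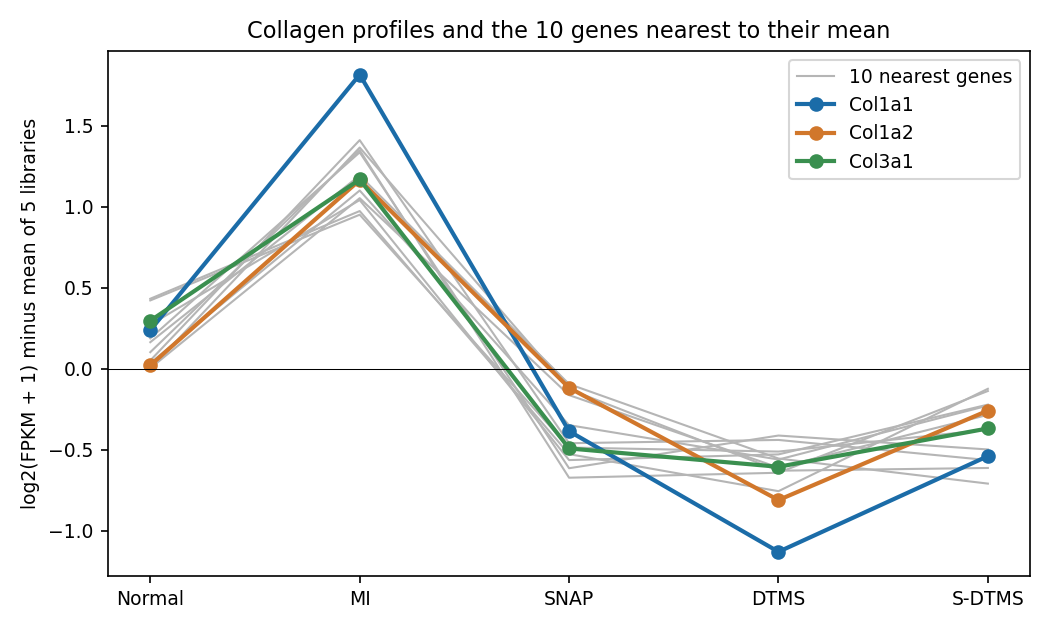
Log2(FPKM + 1) in each library minus the mean of the 5 libraries, for the 3 collagens (coloured) and the 10 genes nearest to their mean profile (grey), with lines that only join the points of a gene. All 13 genes peak in MI, which for the grey genes follows largely from how they were chosen. Of the 3 collagens, Col1a1 has the widest span, 2.94.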

How the data were processed

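RNA of left ventricular wall was sequenced on an Illumina NovaSeq instrument, with 1 library for each of 5 groups, and libraries were assigned by the sample descriptions, which match the column names. The authors deposited FPKM values. The submitters' processing notes name HTSeq, without a version, and the build mm9, a mouse build, although the gene identifiers are those of rat. The aligner and annotation release are not given in the sources used here. The authors' edgeR step needs replicates and was not repeated.

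Fragments were recovered from the FPKM values. The commonest ratio of low values (at least 376 gene values per pair of libraries) gave relative depth, and the largest total that made 97.9% of 2740 gene lengths whole gave the library totals. Changes were differences of log2(FPKM + 1) over the 13769 genes that reached an FPKM of 1 somewhere, with a limit of 1. Intervals (95%) were exact Poisson for levels and exact binomial for ratios of 2 genes or 2 libraries. For the mean type I to type III ratio and the median change, a normal approximation on the log scale decided whether an alternative was unmoved. That of the median change used the fragments of the median member. The recovery of totals and fragments and the limit on changes were tried on simulated libraries, all drawn from the MI values with counting noise and planted changes. That simulation held no variation between rats and no other difference in composition between libraries. The 10 genes nearest to the mean profile, among those with an FPKM of at least 10, were named by identifier, 2 of them in print. The members, lists and limit were chosen with earlier results of these data known. Alternatives comprised TPM, median of ratios, a limit of 2, a pseudocount of 0.1, an FPKM minimum of 5 or none, other forms of the ratios and, added after seeing the data, library totals without the 10 genes of highest mean FPKM. The 17 lists of related genes and cell markers were not analysed here, as 0 of the 20646 identifiers had a symbol in the reference table. The members' symbols came with the request for this work. Computations used pandas 2.3.3, SciPy 1.17.1 and NumPy 2.4.6 in Python 3.11.15, with plots by Matplotlib 3.10.9.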

Additional observations from a re-analysis of the deposited data

Results flagged for a closer look

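On the deposited scale, the collagens differed in opposite directions with SNAP in hearts without and with the suture. From MI to SNAP the log2 difference was -2.20 for Col1a1, -1.28 for Col1a2 and -1.66 for Col3a1, whereas from DTMS to S-DTMS it was 0.59, 0.55 and 0.24. The second difference exceeded the first by 2.79 for Col1a1, 1.83 for Col1a2 and 1.90 for Col3a1. Over all 13769 genes tested the median of this value was 0.40, and it was at least that of Col1a2 in 3.00% of genes. For Col3a1 the directions with the suture were opposite too on this scale, at -1.77 from MI to DTMS and 0.12 from SNAP to S-DTMS, again 1.90 apart, since both layouts use the same 4 libraries. For Col1a1 and Col1a2 the change from SNAP to S-DTMS was -0.15 and -0.14. With 1 library per group these differences were not tested. The directions of Col3a1 depended on the scale. From DTMS to S-DTMS its change was -0.05 with the median of ratios and -0.0076 without the 10 most abundant genes in the totals, and from SNAP to S-DTMS it was -0.24 and -0.16, so that on both scales neither pair of its directions was opposite.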

How the results depend on the processing

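No paired analysis was possible because no group had more than 1 library. Of 91 values under an alternative, 56 were unmoved, and none turned the sign of a change past the limit. Unmoved means within the 95% counting interval for changes and ratios and within 1.5 times for counts of collagens. Some of the 56 could not have moved. Other filters on low values could not alter a count, since every collagen reached an FPKM of at least 10.4 in MI. The counts of 0 in S-DTMS against DTMS and against Normal could not fall at a higher limit. In MI against Normal, a count of 3 with the median of ratios, against 2, was still within 1.5 times. In S-DTMS against DTMS the median change fell from 0.55 to 0.31 with the median of ratios and counted as unmoved. The interval there was wide, as it rested on Col1a2, with 143 fragments in DTMS and 249 in S-DTMS. The number of collagens past the limit fell, at a log2 change of at least 2, from 2 to 0 in MI against Normal and from 3 to 1 in SNAP, DTMS and S-DTMS against MI. The share of all genes past 2 was not counted. Percentile 99 of all genes was 1.38 in MI against Normal. Against MI, percentile 1 was -1.54 in SNAP, -1.51 in DTMS and -1.94 in S-DTMS. The median collagen change in SNAP against MI was -1.47 with the median of ratios, -1.63 as TPM and -1.61 without the 10 most abundant genes. In DTMS against MI it was -2.39 with a pseudocount of 0.1. In S-DTMS against MI it was -1.65 with that pseudocount, -1.71 with the median of ratios, -1.40 as TPM and -1.76 without the 10 most abundant genes. In S-DTMS against Normal it was -0.70, -0.58 and -0.76 with the last 3 settings. A smaller pseudocount damps low genes such as Col1a2 less, and each scaling multiplies a library by a single factor.

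The ratio of type I to type III in Normal, MI, SNAP, DTMS and S-DTMS was 0.397, 0.648, 0.444, 0.286 and 0.366 with Col1a1 alone, 0.00455, 0.00621, 0.00697, 0.00389 and 0.00564 with Col1a2 alone, and 0.245, 0.399, 0.275, 0.177 and 0.227 from fragments not divided by gene length. The ratio of Col1a1 to Col1a2 from FPKM + 1 was 70.5, 95.3, 50.4, 48.6 and 49.96 in the same order. Depth limited Col1a2, with 143 fragments in DTMS, and not the other members.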
